A study of Drosophila melanogaster with 60 samples.

Results

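The peptidoglycan recognition proteins (PGRPs) are the sensors with which a fly detects bacterial cell wall. RNA of 10 PGRP genes was followed around the day in abdominal fat tissue of mated female Drosophila melanogaster. The genes are PGRP-SA, PGRP-SB1, PGRP-SC1a, PGRP-SC1b, PGRP-SC2, PGRP-SD, PGRP-LB, PGRP-LC, PGRP-LE and PGRP-LF. They were found by matching the FlyBase gene identifiers of the deposited tables to gene symbols, and all 10 were among the 13969 genes of the tables. A filter on low counts kept 8 of the 10. PGRP-SC1a and PGRP-SC1b did not pass it and are described without a test.

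Flies carrying Clk-Jrk, an allele of the circadian activator gene Clock that had been crossed back to w1118 for 7 generations, were held at 25 °C (12 samples). The wild type was w1118, kept at either 18 °C or 25 °C with 24 samples per temperature. All flies were about 3 days old, were entrained for 5 days to 12 h of light and 12 h of dark on a diet of sucrose and yeast, and were pooled by 10 flies per sample. Clk-Jrk flies were sampled at 6 times of day and wild-type flies at 12, given as zeitgeber time (ZT), the hours after lights on, with 2 replicates at each time. Clk-Jrk is carried by the whole animal, so a difference cannot be assigned to the clock of the fat cells. Chromosome segments that stayed with the allele through the crosses to w1118 cannot be told apart from the allele itself. Nothing in the labels says that the 2 replicates at a time were separate cohorts. Flies came from a pair of incubators with inverse light schedules, but the labels leave out which of them held a sample.

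As background, PGRPs bind peptidoglycan through a domain related to bacteriophage amidases. Some members only recognise it and start one of the humoral immune pathways of the fly: Toll, which answers mainly to Lys-type peptidoglycan of many Gram-positive bacteria, or Imd, which answers to the DAP-type peptidoglycan of Gram-negative bacteria and bacilli. Others cut peptidoglycan and so lower the signal, and one blocks a receptor. The fat body, which serves the fly as both liver and fat store, is where both pathways switch on genes for antimicrobial peptides that are secreted into the haemolymph. Genes with an S in their name encode short, mostly secreted proteins, and genes with an L encode longer ones, several of them membrane receptors.

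The libraries held 10667764 to 28822277 estimated counts in Clk-Jrk flies, 4923858 to 25133564 in wild type at 18 °C and 5808864 to 46590109 in wild type at 25 °C. In replicate 1 at 18 °C the columns of ZT 2 and ZT 20 were copies of each other, and both were left out, so that 22 libraries remained. Of the clock genes used to check the genotype, tim fell by 3.63 and vri by 2.78 on the log2 scale in Clk-Jrk flies relative to wild type at 25 °C (edgeR quasi-likelihood test, adjusted p = 3.48e-07 and 8.16e-08). Clk-Jrk is a change within the coding region of Clk, so the level of Clk RNA does not show the change itself. The summed level of 5 fat body genes was 1583 to 3638 TPM (a level scaled for transcript length and library total) in Clk-Jrk flies, 2005 to 3562 TPM in wild type at 18 °C and 1646 to 3410 TPM in wild type at 25 °C. RNA of dissected-away tissues was present too. The summed level of 10 gut genes was 18.2 to 824 TPM in Clk-Jrk flies, 33.1 to 5616 TPM in wild type at 18 °C and 12.4 to 12623 TPM in wild type at 25 °C, and the summed level of 6 photoreceptor genes, at most 26.3 TPM in Clk-Jrk flies, reached 1214 TPM in 1 library at 18 °C and 1325 TPM in 1 at 25 °C. No gene of any of the 8 marker lists was at 0 in all libraries of a group.

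Levels in TPM are per transcript length and may be set side by side between genes. In Clk-Jrk flies the order of the medians was PGRP-SB1 (74.4 TPM), PGRP-SA (69.8), PGRP-LC (61.6), PGRP-SD (47.7), PGRP-LE (19.1), PGRP-LB (11.1), PGRP-LF (6.87) and PGRP-SC2 (3.32). The first 4 of these overlapped in their ranges over the 12 libraries, whereas PGRP-SD was above PGRP-LE, PGRP-LE above PGRP-LB and PGRP-LB above PGRP-LF with no overlap. In wild type at 18 °C the order was PGRP-SD (111.6 TPM), PGRP-SA (83.9), PGRP-LC (30.2), PGRP-LE (22.2), PGRP-SB1 (20.9), PGRP-LF (13.5), PGRP-LB (12.3) and PGRP-SC2 (1.81). At 25 °C it was PGRP-SD (119.7 TPM), PGRP-SA (63.2), PGRP-SB1 (34.1), PGRP-LE (25.0), PGRP-LC (19.9), PGRP-LB (11.4), PGRP-LF (7.97) and PGRP-SC2 (1.45). Neighbours in the wild-type orders overlapped in range at every step, but PGRP-SD was above PGRP-SA in 24 of 24 libraries at 25 °C and in 18 of 22 at 18 °C. PGRP-SC1a and PGRP-SC1b came last, with medians at or close to 0 in all 3 groups.

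**Figure D1:**
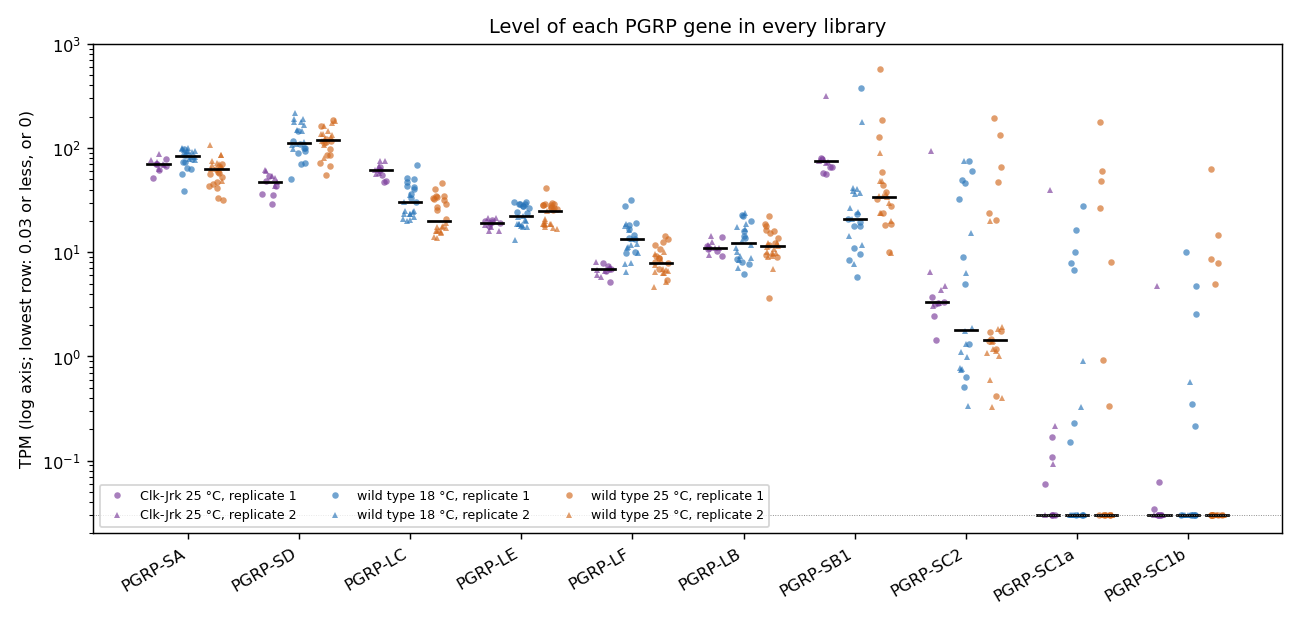
Level of the 10 genes in TPM (log axis) in every library of Clk-Jrk at 25 °C, wild type at 18 °C and wild type at 25 °C, with replicate 1 as circles, replicate 2 as triangles and the median as a bar. Values at or under 0.03 TPM, 0 included, are drawn on the lowest row. PGRP-SB1, PGRP-SC2, PGRP-SC1a and PGRP-SC1b have single libraries far above their medians, and PGRP-LC is higher in every Clk-Jrk library than in any wild-type library at 25 °C.

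Among the tested members, Clk-Jrk flies had more PGRP-LC and PGRP-SA RNA and less PGRP-SD RNA than wild type at 25 °C at the same 6 times. These 2 higher and 1 lower of 8 stand beside 18.5% higher and 24.9% lower of all 9289 genes tested (43.4% in either direction), so the share of members called is close to the background. The median difference of the 8 members was 0.09 on the log2 scale, against -0.08 for all genes tested. Wild type at 18 °C had more PGRP-LF, PGRP-LC and PGRP-SA RNA than wild type at 25 °C. That is 3 higher and 0 lower of 8, beside 23.3% higher and 25.3% lower of all genes (48.5% in either direction), with a median difference of 0.08 for the members and -0.02 for all genes. At an unadjusted p under 0.05 the counts of members were also 3 and 3, beside 4798 and 5109 of the 9289 genes. Both comparisons use wild-type libraries at 25 °C. All differences in level are on the log2 scale, from counts scaled between libraries, and are called at an adjusted p under 0.05. In bulk tissue, fewer cells of a type and less RNA per cell cannot be told apart.

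**Figure D2:**
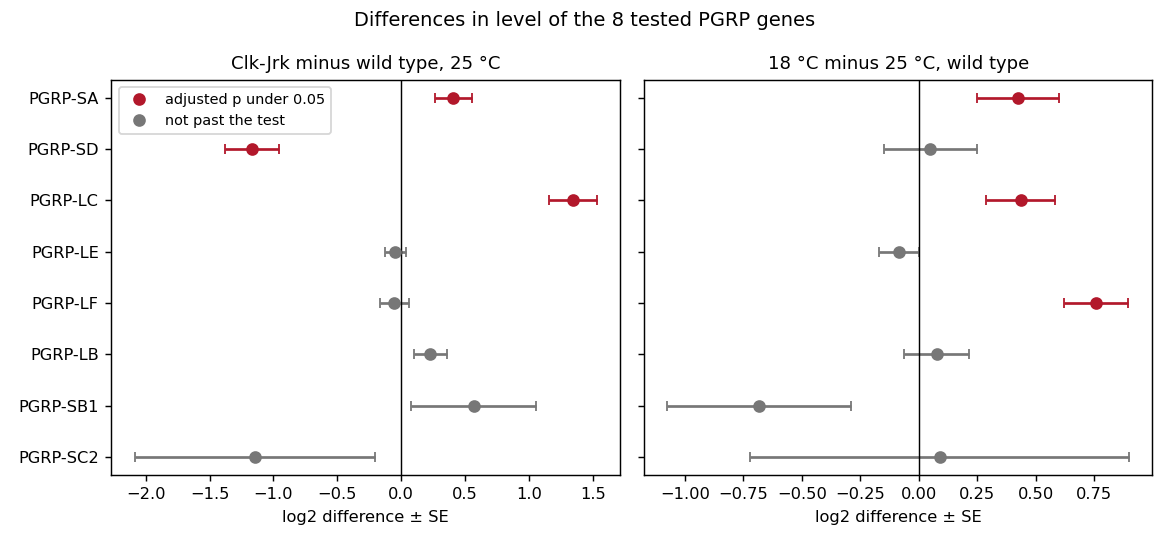
Difference in level on the log2 scale, with its standard error, of the 8 tested genes between Clk-Jrk and wild type at 25 °C (left, 12 libraries each) and between wild type at 18 °C and at 25 °C (right, 22 and 24 libraries). Red points passed the test at an adjusted p under 0.05, and PGRP-LC at 1.35 and PGRP-SD at -1.17 are the called genes farthest from 0.

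PGRP-SA and PGRP-SD are secreted recognition proteins. PGRP-SA forms a complex with GNBP1 that activates the protease cascade upstream of Toll, and PGRP-SD has been placed upstream of Toll and, in later work, of Imd. PGRP-SA lies on chromosome X (BDGP6.54, X:11561643-11562779, plus strand, 2 transcripts of 3 exons). PGRP-SD is a gene of 1 exon on 3L (3L:7651180-7651900, plus strand), inside CG32373 on the same strand and sharing its last 35 bases with CG7492 on the other strand. The labels do not say whether the libraries keep strand, so reads of such overlaps cannot be told apart.

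PGRP-SD was the member that fell in Clk-Jrk flies. At the shared times its level was 28.9 to 62.3 TPM (median 47.7) in Clk-Jrk flies, against 55.5 to 187 TPM (median 130.6) in wild type at 25 °C. The ranges overlapped only at their edge: 10 of 12 Clk-Jrk libraries lay below every wild-type library. Means were 47.0 ± 10.1 TPM in Clk-Jrk flies and 130 ± 41.5 TPM in wild type at 25 °C (SD, n = 12 each). The difference was -1.17 ± 0.21 on the log2 scale (SE), or 0.445 of the wild-type level, lower at 6 of 6 times (edgeR quasi-likelihood test, adjusted p = 0.000521). For PGRP-SD it was -1.04 between the libraries of replicate 2 alone and -1.20 between those of replicate 1 alone, past the test in each. Between 18 °C and 25 °C PGRP-SD differed by 0.05 ± 0.20 on the log2 scale (adjusted p = 0.865), with 50.5 to 215 TPM at 18 °C and 55.5 to 187 TPM at 25 °C in wild type.

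PGRP-SA had a small positive difference in both comparisons. Its level was 51.7 to 87.8 TPM (median 69.8) in Clk-Jrk flies, against 33.1 to 75.3 TPM (median 64.7) in wild type at 25 °C at the same times. The ranges overlapped widely, with 3 of 12 Clk-Jrk libraries above every wild-type library. The difference was 0.41 ± 0.15 on the log2 scale, 1.33-fold, higher at 5 of 6 times (edgeR quasi-likelihood test, adjusted p = 0.0344). On the log2(TPM + 1) scale it was 0.19 and not past the test (limma, adjusted p = 0.142), where the median of all genes tested lay at -0.28. At 18 °C the wild-type level was 39.0 to 101.4 TPM (median 83.9), against 31.9 to 106.7 TPM (median 63.2) at 25 °C, a difference of 0.42 ± 0.18, or 1.34-fold, higher at 10 of 12 times (edgeR quasi-likelihood test, adjusted p = 0.0494). The PGRP-SA genotype call held in 8 of 17 alternative analyses and was lost without ZT 6, ZT 14 or ZT 22 (adjusted p = 0.101, 0.0937 and 0.0916). The temperature call held in 9 of 26 and was lost with any of ZT 2, 4, 6, 8, 10, 14, 18 or 24 left out. Without 6 libraries, picked from earlier results for RNA of other tissues or little mitochondrial RNA, the differences were 0.27 (adjusted p = 0.128) and 0.34 (adjusted p = 0.0899). The 6 include the libraries with the highest gut sum (12623 TPM) and the highest summed ovary level (13433 TPM), but not all libraries rich in such RNA. Wild type at 25 °C, replicate 1, was kept at ZT 6 with a gut sum of 8940 TPM. Its ZT 24 library was kept with a summed ovary level of 12428 TPM.

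Within libraries the balance of these secreted sensors differed between the groups. PGRP-SA stood at 1.44 times PGRP-SD in the median Clk-Jrk library (range 1.01 to 2.42, n = 12), at 0.62 times in wild type at 18 °C (0.38 to 1.72, n = 22) and at 0.51 times in wild type at 25 °C (0.37 to 0.87, n = 24). Every Clk-Jrk library had more PGRP-SA than PGRP-SD, and every wild-type library at 25 °C had less. The ratio was not tested apart from its parts.

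PGRP-LC and PGRP-LE are the receptors of the Imd pathway. PGRP-LC is the transmembrane receptor on fat body cells, made in several splice forms, and PGRP-LE senses fragments of peptidoglycan inside cells. PGRP-LC lies on 3L (3L:9338810-9348336, plus strand, 10 transcripts) between PGRP-LA, 473 bases before it, and PGRP-LF, 1272 bases after it. The deposited values are per gene and do not separate its transcripts. PGRP-LE is on X (X:15801153-15803880, minus strand, 2 transcripts).

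PGRP-LC had the largest positive difference of the tested members in Clk-Jrk flies. At the shared times it was at 47.8 to 75.7 TPM (median 61.6) in Clk-Jrk flies, against 14.1 to 40.5 TPM (median 19.3) in wild type at 25 °C. All 12 Clk-Jrk libraries lay above all 12 wild-type libraries. Means were 61.2 ± 8.92 TPM in Clk-Jrk flies and 24.3 ± 9.80 TPM in wild type at 25 °C (SD, n = 12 each). The difference was 1.35 ± 0.19 on the log2 scale, 2.54-fold, higher at 6 of 6 times (edgeR quasi-likelihood test, adjusted p = 8.39e-05).

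The size of this difference varied with the replicate series. In replicate 1 PGRP-LC was at 47.8 to 65.3 TPM in Clk-Jrk flies, against 20.7 to 40.5 TPM in wild type at 25 °C. In replicate 2 it was at 55.8 to 75.7 TPM in Clk-Jrk flies, against 14.1 to 18.0 TPM in wild type at 25 °C, so that the wild-type replicates did not overlap. The difference was 0.83 on the log2 scale between libraries of replicate 1 (adjusted p = 0.05 after rounding, just past the threshold) and 1.99 between those of replicate 2 (edgeR quasi-likelihood test, adjusted p = 0.000476). The cause of the gap between the replicate series was not tested.

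In wild type PGRP-LC was also higher in the cold. Its level was 19.9 to 69.5 TPM (median 30.2) at 18 °C, against 13.6 to 46.8 TPM (median 19.9) at 25 °C, and the ranges overlapped. The difference was 0.44 ± 0.15 on the log2 scale, 1.35-fold, higher at 11 of 12 times (edgeR quasi-likelihood test, adjusted p = 0.0179). It was 0.38 between libraries of replicate 1 and 0.52 between those of replicate 2, and past the test in each. Without ZT 4 the adjusted p for PGRP-LC was 0.0514, and on the log2(TPM + 1) scale it was 0.0877 (limma). With marker means of gut, ovary and haemocytes as terms it was 0.41 (edgeR quasi-likelihood test, adjusted p = 0.196).

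PGRP-LE was not called in either comparison. It was at 15.9 to 21.4 TPM (median 19.1) in Clk-Jrk flies, at 13.1 to 30.6 TPM (median 22.2) in wild type at 18 °C and at 16.9 to 41.6 TPM (median 25.0) in wild type at 25 °C. The difference was -0.05 ± 0.08 on the log2 scale between Clk-Jrk and wild type at 25 °C (adjusted p = 0.681) and -0.09 ± 0.09 between 18 °C and 25 °C (adjusted p = 0.433). On the log2(TPM + 1) scale the first was -0.30 (limma, adjusted p = 0.0189), but on that scale the median of all genes tested lay at -0.28. PGRP-LC stood at 3.28 times PGRP-LE in the median Clk-Jrk library (range 2.39 to 3.80), at 1.34 times in wild type at 18 °C (1.04 to 2.27) and at 1.0 times in wild type at 25 °C (0.57 to 1.6), and the range of Clk-Jrk overlapped with neither.

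PGRP-LF encodes a membrane protein that pairs with PGRP-LC without binding peptidoglycan and so blocks it. It lies directly behind PGRP-LC (3L:9349609-9351489, plus strand, 1 transcript of 4 exons). Its last 623 bases overlap UGP, a gene on the other strand. UGP itself was higher in Clk-Jrk flies (0.70, edgeR quasi-likelihood test, adjusted p = 0.000539) and differed by 0.20 between 18 °C and 25 °C (adjusted p = 0.257).

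PGRP-LF was the member that rose most in the cold. In wild type it was at 6.47 to 31.8 TPM (median 13.5) at 18 °C, against 4.62 to 14.4 TPM (median 7.97) at 25 °C. The ranges overlapped, but the mean at 18 °C was the higher one at 12 of 12 times. The difference was 0.76 ± 0.14 on the log2 scale, 1.69-fold (edgeR quasi-likelihood test, adjusted p = 0.000107), and it was 0.70 and 0.71 in libraries of replicate 1 and of replicate 2 alone. With marker means of gut, ovary and haemocytes as terms it was 0.51 and not past the test (edgeR quasi-likelihood test, adjusted p = 0.104). In Clk-Jrk flies PGRP-LF was at 5.22 to 8.00 TPM, against 4.62 to 14.4 TPM in wild type at 25 °C at the same times, and the difference was -0.05 ± 0.11 (adjusted p = 0.728). On the log2(TPM + 1) scale it was -0.30 (limma, adjusted p = 0.0295), beside the same median of all genes, -0.28.

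The receptor gene stood further above the inhibitor gene in Clk-Jrk flies than in wild type. PGRP-LC was at 8.90 times the level of PGRP-LF in the median Clk-Jrk library (range 7.03 to 12.4, n = 12). In wild type it was at 2.45 times at 18 °C (1.15 to 5.05, n = 22) and at 2.66 times at 25 °C (1.56 to 5.31, n = 24). In this untested ratio every Clk-Jrk library lay above every wild-type library, and replicate 1 and replicate 2 showed it separately, with 7.03 to 9.17 and 8.36 to 12.4 in Clk-Jrk flies against 2.30 to 5.31 and 1.56 to 3.71 in wild type at 25 °C.

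**Figure D3:**
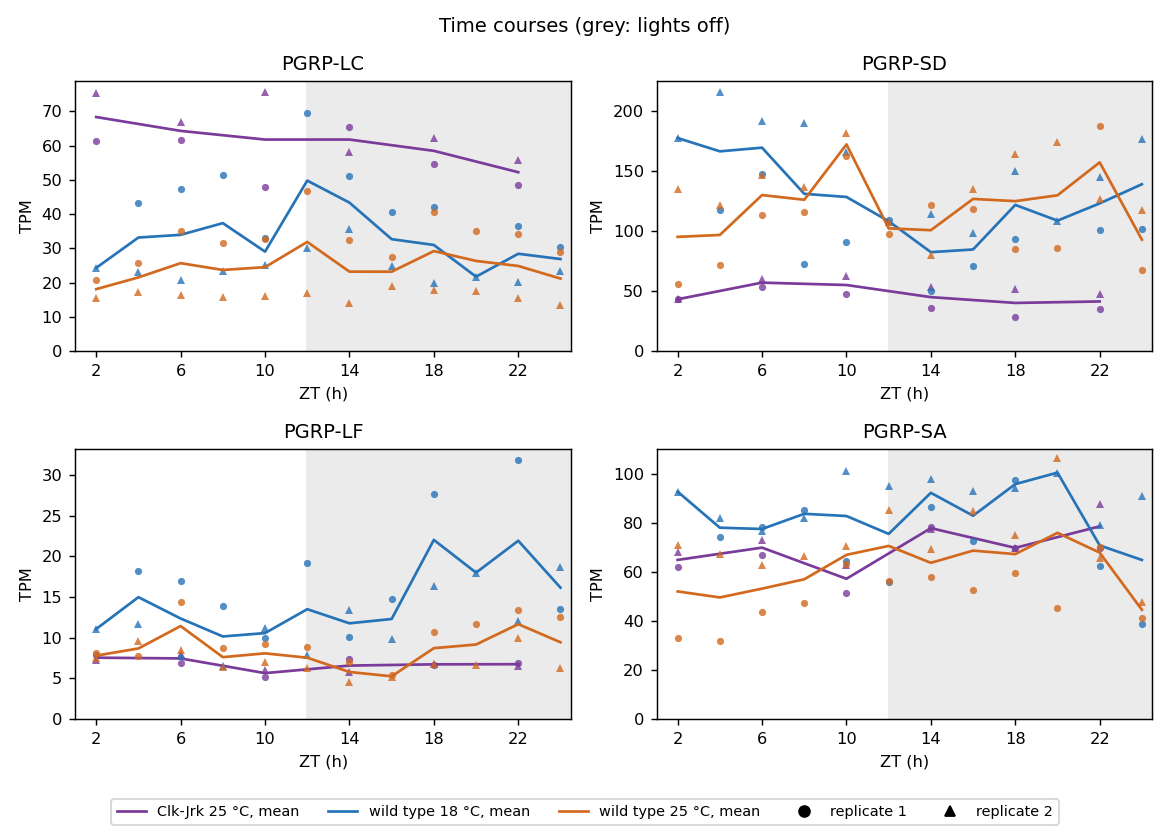
Level in TPM against ZT of PGRP-LC, PGRP-SD, PGRP-LF and PGRP-SA in Clk-Jrk at 25 °C, wild type at 18 °C and wild type at 25 °C. Lines join the mean at each time, circles are replicate 1, triangles replicate 2, and grey marks the dark phase. The mean of Clk-Jrk flies lies above that of wild type at 25 °C for PGRP-LC and below it for PGRP-SD at all 6 shared times, and the mean at 18 °C lies above that at 25 °C for PGRP-LF at all 12.

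PGRP-LB encodes an amidase that cuts DAP-type peptidoglycan and damps Imd signalling. The gene is on 3R (3R:11452849-11460552, minus strand, 6 transcripts of 3 exons) and lies within CG17230 on the other strand. In the fit without a replicate term it was the only tested member with a daily rhythm past edgeR's test in any group, and this in wild type at 18 °C. That is 1 of 8 members, where 1.94% of all genes passed. At an unadjusted p under 0.05 there were 3 members at 18 °C, beside 1417 of 9289 genes. In wild type at 25 °C 0 of 8 members passed (0.398% of all genes), with 831 genes and 1 member at an unadjusted p under 0.05. In Clk-Jrk flies 0 of 8 passed (0% of all genes in edgeR, though 1432 genes and 1 member were at an unadjusted p under 0.05). DESeq2 called 0 of 8 members in wild type at 25 °C (1.11% of all genes). In Clk-Jrk flies it gave an adjusted p to 5 members and called 0 of these (2.49% of all genes).

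In wild type at 18 °C PGRP-LB was at 9.14 to 23.8 TPM in the libraries of ZT 2 to ZT 14 and at 6.18 to 10.95 TPM in those of ZT 16 to ZT 24, so that the ranges overlapped at their edge. Its highest mean was 21.8 TPM at ZT 12, where the libraries held 19.8 and 23.8 TPM, and its lowest 7.03 TPM at ZT 20, from 1 library. The mean was 19.8 TPM at ZT 14 and 8.94 TPM at ZT 16. A cosine with a period of 24 h fitted to log2 CPM (counts scaled to a common library total) gave an amplitude of 0.62 ± 0.13 (SE), a peak at ZT 9.26 ± 0.81 h and a 2.36-fold ratio of peak to trough (edgeR quasi-likelihood test, adjusted p = 0.0354).

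In wild type at 25 °C the same gene had an amplitude of 0.41 ± 0.13 and a peak at ZT 10.5 ± 1.24 h, a 1.77-fold ratio of peak to trough (edgeR quasi-likelihood test, unadjusted p = 0.0147, adjusted p = 0.417). The swing was in replicate 1, with 3.62 to 22.5 TPM, more than in replicate 2, with 6.99 to 12.3 TPM. In Clk-Jrk flies PGRP-LB stayed within 9.26 to 14.5 TPM at all times, with an amplitude of 0.10 ± 0.07 (adjusted p = 0.704). The rhythm was not shown to differ between groups: the test of the difference gave an adjusted p of 0.623 between 18 °C and 25 °C and of 0.551 between Clk-Jrk and wild type at 25 °C.

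The rhythm call of PGRP-LB at 18 °C held in 13 of 26 alternative analyses. When the fit included a step after ZT 12 the adjusted p was 0.342. The step was placed there because of the inverse light schedules, but it falls at lights-off as well, so a change of incubator and a change from day to night cannot be told apart. With replicate 1 or replicate 2 left out the adjusted p was 0.275 or 0.507. Leaving out any of ZT 4, 6, 12, 14, 16, 18, 20 or 22 also lost it, with adjusted p of 0.0643 to 0.117. The mean level of PGRP-LB passed no test, with 0.23 ± 0.13 on the log2 scale between Clk-Jrk and wild type at 25 °C (adjusted p = 0.171) and 0.08 ± 0.14 between 18 °C and 25 °C (adjusted p = 0.677). In replicate 2 alone the genotype difference was 0.54 (edgeR quasi-likelihood test, adjusted p = 0.0181), in replicate 1 alone it was -0.01, and without the 6 libraries it was 0.40 (adjusted p = 0.013).

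**Figure D4:**
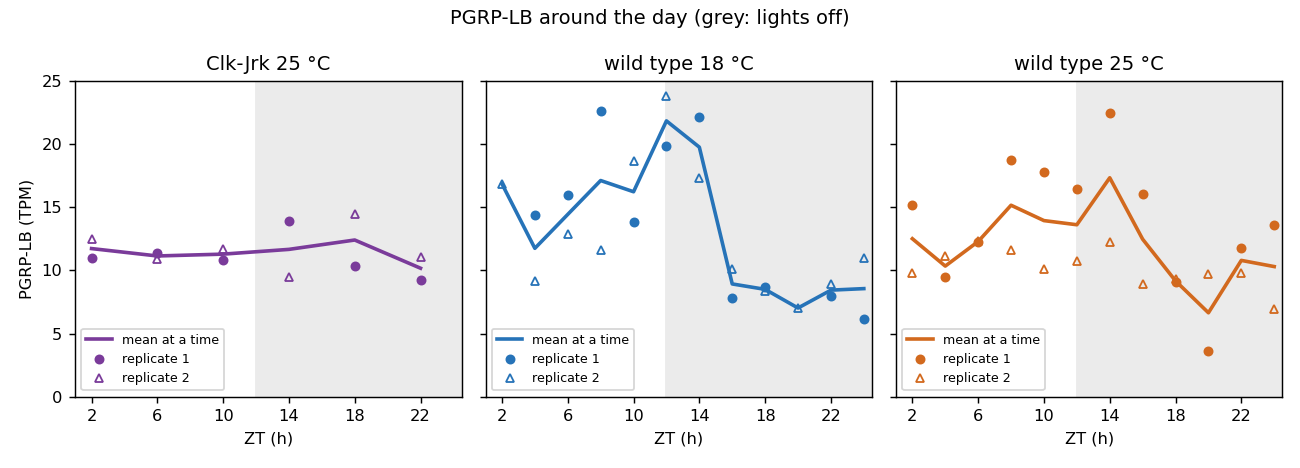
PGRP-LB in TPM against ZT in Clk-Jrk at 25 °C, wild type at 18 °C and wild type at 25 °C, with lines through the mean at each time, filled circles for replicate 1 and open triangles for replicate 2. Grey marks the dark phase. Clk-Jrk libraries, from 6 times, lie between 9.26 and 14.5 TPM. Wild-type libraries at 25 °C lie between 9.06 and 22.5 TPM at the same times and between 3.62 and 22.5 TPM at all 12. Those at 18 °C lie between 6.18 and 23.8 TPM.

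No other member had a rhythm past the test in that fit. In wild type at 18 °C PGRP-LF had an amplitude of 0.43 ± 0.14 with a peak at ZT 21.6 ± 1.28 h (edgeR quasi-likelihood test, adjusted p = 0.178), near the end of the night, and PGRP-SD had an amplitude of 0.50 ± 0.18 with a peak at ZT 3.30 ± 1.4 h (adjusted p = 0.248), early in the day. PGRP-LC had 0.28 ± 0.12 with a peak at ZT 10.6 ± 1.66 h (adjusted p = 0.358). In Clk-Jrk flies the amplitude of PGRP-LF was 0.26 ± 0.09 (adjusted p = 0.338). Differences in rhythm between 18 °C and 25 °C were called for 0 of 8 members (0.118% of all genes, with 1297 genes and 2 members at an unadjusted p under 0.05). Between Clk-Jrk and wild type they were called for 0 of 8 (0% of all genes, with 902 genes but 0 members at an unadjusted p under 0.05). DESeq2 called 0 members in both, with 0.484% and 0.291% of all genes.

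PGRP-SB1 encodes a secreted amidase for DAP-type peptidoglycan whose RNA is known to rise upon infection. The gene is on 3L (3L:16727299-16727989, minus strand, 1 transcript of 2 exons), 10 bases from PGRP-SB2. PGRP-SB1 was at 56.5 to 316 TPM (median 74.4) in Clk-Jrk flies, at 5.75 to 378 TPM (median 20.9) in wild type at 18 °C and at 9.91 to 577 TPM (median 34.1) in wild type at 25 °C. Without its highest library, replicate 2 at ZT 6, the Clk-Jrk group lay within 56.5 to 79.8 TPM. At the shared times 8 of 12 wild-type libraries at 25 °C lay below every Clk-Jrk library, and 1 lay above every one.

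The highest levels of PGRP-SB1 were in single libraries of all 3 groups. Its 6 highest libraries held at least 127 TPM each, and the other 52 libraries at most 90.2 TPM (median 33.1). They were wild type at 25 °C, replicate 1, at ZT 14 (577 TPM), ZT 10 (185 TPM) and ZT 6 (127 TPM), wild type at 18 °C, replicate 1, ZT 12 (378 TPM) and replicate 2, ZT 24 (179 TPM), and Clk-Jrk, replicate 2, ZT 6 (316 TPM). The same 6 libraries were the 6 highest in the summed level of 11 Imd-responsive antimicrobial peptide genes, with sums of 1494 to 8531 TPM, against at most 978 TPM (median 60.8) in the other 52. The other replicate at each of these times was not among the 6.

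No difference in the mean level of PGRP-SB1 passed the test. It was 0.57 ± 0.49 on the log2 scale between Clk-Jrk and wild type at 25 °C (adjusted p = 0.361) and -0.68 ± 0.39 between 18 °C and 25 °C (adjusted p = 0.152). The genotype difference was 0.01 in replicate 1 alone and 1.89 in replicate 2 alone (edgeR quasi-likelihood test, adjusted p = 0.0257), and 1.44 without the 6 libraries set aside for RNA of other tissues or little mitochondrial RNA (edgeR quasi-likelihood test, adjusted p = 0.0104). Those 6 include 2 of the libraries highest in PGRP-SB1. The temperature difference of PGRP-SB1 was -1.72 in replicate 1 alone (adjusted p = 0.108), -0.19 in replicate 2 alone (adjusted p = 0.651), -0.19 without the 6 libraries (adjusted p = 0.661) and -0.31 without ZT 14 (adjusted p = 0.499), all by edgeR's quasi-likelihood test. With ZT 12 left out it was -0.995 and past the test (edgeR quasi-likelihood test, adjusted p = 0.036).

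PGRP-SC1a, PGRP-SC1b and PGRP-SC2 are amidases best known from the gut. They lie close together on 2R, at 2R:8709733-8710320, 2R:8713446-8715094 and 2R:8716950-8717695, all on the plus strand and each of 1 exon. PGRP-SC1a and PGRP-SC1b are near-identical copies, and how kallisto split reads between them is uncertain. PGRP-SC1a was listed at 0 in 36 of 58 libraries and PGRP-SC1b in 44 of 58. Their sum reached 44.8 TPM in 1 Clk-Jrk library and at most 0.21 TPM in the others, 38.2 TPM in wild type at 18 °C and 241 TPM in wild type at 25 °C.

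PGRP-SC2 was at 1.45 to 93.8 TPM (median 3.32) in Clk-Jrk flies, at 0.34 to 75.4 TPM (median 1.81) in wild type at 18 °C and at 0.33 to 195 TPM (median 1.45) in wild type at 25 °C. These ranges overlapped. At the shared times 5 of 12 wild-type libraries at 25 °C lay below every Clk-Jrk library, and 2 lay above every one. In replicate 1 at these times Clk-Jrk flies held 1.45 to 3.74 TPM, within the 1.71 to 195 TPM of wild type except at the lower edge. In replicate 2 they held 3.08 to 93.8 TPM, against 0.33 to 1.83 TPM in wild type, without overlap. The difference was -1.15 ± 0.94 on the log2 scale between Clk-Jrk and wild type at 25 °C (edgeR quasi-likelihood test, adjusted p = 0.338). Between 18 °C and 25 °C it was 0.09 ± 0.81 (adjusted p = 0.949). The genotype difference of PGRP-SC2 was -3.46 in replicate 1 alone (adjusted p = 0.0535) and 3.17, of opposite sign, in replicate 2 alone (edgeR quasi-likelihood test, adjusted p = 0.0144).

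Some of the libraries high in the 3 PGRP-SC genes were high in gut RNA. In wild type at 25 °C, replicate 1, ZT 14, PGRP-SC2 was at 195 TPM, PGRP-SC1a at 178 TPM and PGRP-SC1b at 63.1 TPM, each the highest of all 58 libraries, and so was the gut sum at 12623 TPM. Of the 12 libraries highest in PGRP-SC2, 6 were among the 12 highest in gut sum, and likewise 6 for each of PGRP-SC1a and PGRP-SC1b. The lowest of these 12 held 24.0 TPM for PGRP-SC2, but only 0.92 TPM for PGRP-SC1a and 0.22 TPM for PGRP-SC1b. In other libraries they parted: PGRP-SC2 was at 75.4 TPM in wild type at 18 °C, replicate 2, ZT 24, where the gut sum was 59.8 TPM and the sum of Imd-responsive peptides, at 8531 TPM, was the highest of all libraries. The reverse was seen in wild type at 25 °C, replicate 2, ZT 14, with a gut sum of 5602 TPM and PGRP-SC2 at 1.08 TPM. In replicate 1, ZT 6, the gut sum was 8940 TPM, PGRP-SC2 was at 20.4 TPM and PGRP-SC1a and PGRP-SC1b were at 0. The part of gut RNA in the PGRP-SC levels was not tested further.

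**Figure D5:**
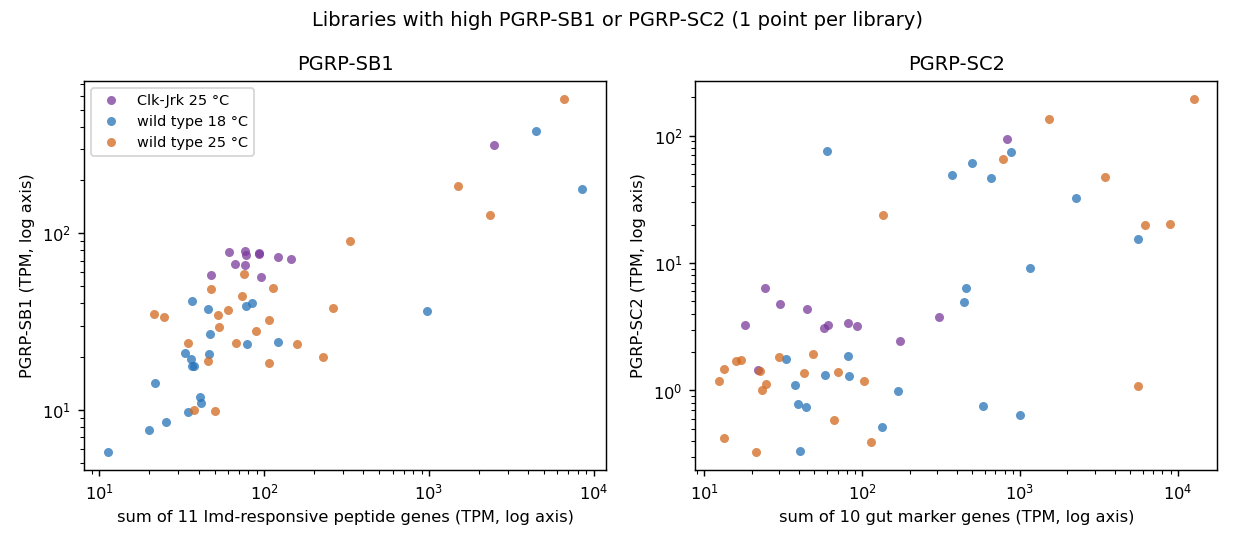
Level of PGRP-SB1 against the summed level of 11 Imd-responsive peptide genes (left) and of PGRP-SC2 against the summed level of 10 gut marker genes (right), in TPM on log axes, with 1 point per library coloured by group. The 6 libraries with PGRP-SB1 of 127 TPM or more are also the 6 with the highest peptide sums, and PGRP-SC2 spans 0.33 to 195 TPM with 6 of its 12 highest values in the 12 libraries of highest gut sum.

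Of the rest of the family, PGRP-LA and PGRP-LD were tested, and PGRP-SB2 was not. The calls were 0 of 2 for genotype and 0 of 2 for temperature, beside 43.4% and 48.5% of all genes tested. PGRP-LA, the neighbour of PGRP-LC, was at 8.88 to 14.7 TPM in Clk-Jrk flies, 6.85 to 22.6 TPM in wild type at 18 °C and 6.07 to 20.5 TPM in wild type at 25 °C. Its differences were 0.34 ± 0.18 on the log2 scale for Clk-Jrk (adjusted p = 0.140) and 0.27 ± 0.15 for 18 °C (adjusted p = 0.136). PGRP-LD differed by 0.09 ± 0.15 (adjusted p = 0.662) and -0.25 ± 0.13 (adjusted p = 0.127). PGRP-SB2 did not pass the filter and was at most 0.38 TPM in any library.

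Signal carriers behind the sensors were taken from lists. Of 19 genes of the Imd pathway, 1 rose and 5 fell in Clk-Jrk flies, beside 18.5% higher and 24.9% lower of all genes tested. The adaptor gene imd, named here because it was the single one to rise, rose by 0.39 on the log2 scale (edgeR quasi-likelihood test, adjusted p = 0.00164). Of those that fell, ben, which encodes a ubiquitin-conjugating enzyme, fell by 0.70, akirin, a nuclear cofactor of Relish, fell by 0.94, Tab2, a partner of the kinase Tak1, fell by 0.55 and eff, another gene for such an enzyme, fell by 0.36 (edgeR quasi-likelihood test, adjusted p under 0.05 for each). The median of the list was -0.07, against -0.08 for all genes tested. At 18 °C 7 of the 19 rose and 1 fell relative to 25 °C, beside 23.3% higher and 25.3% lower of all genes, with a median of 0.07 against -0.02 for all genes. Rel, the NF-kappaB factor of the pathway, was 0.72 higher, imd 0.46 higher and Tak1 0.25 higher, and Fadd, an adaptor, fell by 0.48.

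Of 17 genes of the Toll pathway, 9 rose and 3 fell in Clk-Jrk flies, beside 18.5% higher and 24.9% lower of all genes tested, with a median of 0.36 against -0.08 for all genes. GNBP1, the partner of PGRP-SA, rose by 0.75, the protease genes grass and Hayan by 0.69 and 0.79, and Pli, which encodes the regulator Pellino, fell by 0.81 (edgeR quasi-likelihood test, adjusted p under 0.05 for each). At 18 °C 7 rose and 3 fell relative to 25 °C, beside 23.3% higher and 25.3% lower of all genes, with a median of 0.33 against -0.02. There GNBP1 was 0.50 higher, grass 0.52 and Myd88, an adaptor of Toll, 0.42 higher, and Pli fell by 0.44. These lists were chosen with earlier results of these data known.

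Of 11 Imd-responsive peptide genes 6 passed the filter. In Clk-Jrk flies 0 of the 6 rose and 1 fell, beside 18.5% higher and 24.9% lower of all genes tested. The 1 was Dro, the gene of the antimicrobial peptide Drosocin, at -2.74 ± 0.87 on the log2 scale (edgeR quasi-likelihood test, adjusted p = 0.0195). In wild type at 25 °C, replicate 1, Dro was at 173, 170 and 750 TPM at ZT 6, 10 and 14. The other wild-type libraries at the shared times held 1.62 to 22.9 TPM, and Clk-Jrk libraries 0.36 to 51.2 TPM. The part of those high libraries in the difference was not tested. At 18 °C 0 of 6 passed (1 at an unadjusted p under 0.05), beside 48.5% of all genes. No gene of these 3 lists had a rhythm, or a difference in rhythm, past edgeR's test in any group, while at an unadjusted p under 0.05 there were 2 to 5 of 19 Imd, 2 to 6 of 17 Toll and 0 to 4 of 6 peptide genes, beside 831 to 1432 of all 9289 genes.

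Markers of other cell types differed in the same comparisons, and their part in the differences of the pathway lists was not tested. Their counts stand beside 18.5% higher and 24.9% lower of all genes tested in Clk-Jrk flies, and 23.3% higher and 25.3% lower at 18 °C. Of 10 haemocyte genes 4 were higher in Clk-Jrk flies and 8 at 18 °C, and of 13 ovary genes 4 were lower in Clk-Jrk flies, while at 18 °C 12 were lower and 1 was higher. Of 9 muscle genes 5 were lower in Clk-Jrk flies and 5 were higher at 18 °C. Of 3 Malpighian tubule genes 2 were lower in each comparison, and of 9 tested gut genes 1 was lower in Clk-Jrk flies and 0 differed at 18 °C (0 at an unadjusted p under 0.05). The summed haemocyte level was 202 to 445 TPM in Clk-Jrk flies, 402 to 756 TPM in wild type at 18 °C and 171 to 710 TPM in wild type at 25 °C. The summed ovary level was 91.5 to 2129 TPM in Clk-Jrk flies, 25.9 to 5841 TPM in wild type at 18 °C and 193 to 13433 TPM in wild type at 25 °C.

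With the mean levels of gut, ovary and haemocyte markers as terms in the model, the genotype differences of PGRP-LC and PGRP-SD were 1.48 and -1.56 and stayed past the test (adjusted p from edgeR's quasi-likelihood test of 5.76e-05 and 4.1e-05), and that of PGRP-SA was 0.12 (adjusted p = 0.325). The temperature differences under the same terms were 0.51 for PGRP-LF (adjusted p = 0.104), 0.41 for PGRP-LC (adjusted p = 0.196) and -0.09 for PGRP-SA (adjusted p = 0.843), none past the test, and the share of all genes called for temperature was then 10.9%.

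Across the 58 libraries, after subtracting the mean of each group, the members that moved most alike were PGRP-LC and PGRP-LE (Pearson r = 0.70), PGRP-SA and PGRP-SD (r = 0.684) and PGRP-SB1 and PGRP-SD (r = 0.556), on log2 CPM. These are descriptions over points that share their library, with its depth and admixed RNA, and carry no test. The gene most like PGRP-SB1 was DptB, which encodes the antimicrobial peptide Diptericin B (r = 0.862), followed by AttC (0.843) and Dro (0.788). For PGRP-SC2 they were CG42397 (0.871), CG17633 (0.857) and Jon99Fii (0.838). PGRP-LC was followed most closely by Tsp42El (0.881), CG13124 (0.865) and its neighbour PGRP-LA (0.858).

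PGRP-SA was most like CG6299 (0.928), Hayan (0.922) and betaTub97EF (0.921), and PGRP-SD most like CG6415 (0.900), Mtp (0.897) and Ldsdh1 (0.892). The closest genes had lower r for the remaining members: CG10237 (0.727), Pcyt1 (0.693) and CG7778 (0.653) for PGRP-LB, Stim (0.784), Fis1 (0.779) and cni (0.764) for PGRP-LE, and Pngl (0.762), nes (0.740) and mdy (0.726) for PGRP-LF.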

How the data were processed

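RNA of dissected abdominal fat tissue was sequenced in 60 samples. Per the submitters' processing notes the authors used kallisto 0.46.2, and they deposited unscaled estimated counts and TPM per gene. Neither the transcript set nor the step from transcripts to genes is stated in the labels. Among nonzero deposited estimated counts, 80.5% were whole to within 0.001. Positions come from the BDGP6.54 annotation, a separate source, and symbols were found for 13950 of 13969 identifiers.

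Groups follow the labels, and n is 58 after an identical pair of columns was left out. Estimated counts were rounded, filtered by filterByExpr over the 3 groups (9289 genes), scaled by TMM and tested in edgeR 4.0.16 under R 4.3.3 by quasi-likelihood. P-values were adjusted over all genes (Benjamini-Hochberg, threshold 0.05). Levels were contrasted over shared ZT with a mean per group and ZT, Clk-Jrk against the 12 time-matched wild-type libraries at 25 °C. Rhythm was a 24 h cosine and sine tested together, and differences in rhythm were interactions. Amplitudes (peak minus mean) come from least-squares cosine fits to log2 CPM (prior count 2). Values of 1 replicate come from fits of that series alone with ZT as a term. TPM levels and ratios carry no test. P-values measure the spread between libraries, which may be technical. Fits were tested on simulated data.

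The members and lists were chosen with earlier results of these data known. Named genes are the family, up to 4 genes per pathway list with the smallest adjusted p, and the 3 genes most like each member. Marker and check genes (tim, vri, Clk, UGP) are named as checks. Haemocyte, ovary, gut, fat body and other marker lists were used as sums. Alternatives were DESeq2 1.42.0, RLE size factors, leaving the filter out, limma 3.58.1 on log2(TPM + 1) (pseudocount 1), a replicate term, replicates or ZT left out, 6 libraries left out (chosen from earlier results: wild type at 25 °C, replicate 1, ZT 2, 4, 10 and 14; the ZT 24 library of replicate 1 at 18 °C; and Clk-Jrk, replicate 2, ZT 22), PGRP-SC1a and PGRP-SC1b summed, an adjusted p under 0.01, marker covariates, a step after ZT 12 for the inverse light schedules, and other handling of the identical pair.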

Additional observations from a re-analysis of the deposited data

How the results depend on the processing

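Counts below are members called of 8, or of 10 where the filter was left out. For temperature the count of 3 (48.5% of all genes) went to 1 at an adjusted p under 0.01 (33% of all genes). With gut, ovary and haemocyte marker means as terms it was 0 (10.9%), and PGRP-SA turned to -0.0896 (edgeR quasi-likelihood test, adjusted p = 0.843). The temperature count was 1 to 4 with a ZT left out, beside 41.7% to 49.4% of all genes. It was 1 without ZT 4 (41.7%) and 4 without ZT 12 (46.4%), where PGRP-SB1 joined at -0.995 (edgeR quasi-likelihood test, adjusted p = 0.036). It was 3 without replicate 1 (31.8%) and 2 without replicate 2 (34.6%). For genotype the count of 3 (43.4% of all genes) became 5 without replicate 1 (28.1%), when PGRP-SC2 turned to 3.17. It became 2 without replicate 2 (14.2%), when the difference of PGRP-SC2 was -3.46. The rhythm of PGRP-LB at 18 °C was called in 13 of 26 alternatives. The count of 1 (1.94% of all genes) became 0 without the filter (1.19%), at an adjusted p under 0.01 and with a step after ZT 12 (0.484%). It was also 0 without replicate 1 (1.02%) or replicate 2 (0%). With a ZT left out it was 0 to 1 (0.495% to 3.01%), and the call held in 4 of 12. PGRP-LC and PGRP-SD kept their genotype calls in 17 of 17 alternatives, and PGRP-LF and PGRP-LC their temperature calls in 25 and 22 of 26. No member was called for rhythm at 25 °C in either genotype, or for a difference in rhythm, under any alternative run. The cause of these shifts was not tested.

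Not every same-numbered pair correlated above 0.1, so replicate numbers were not taken to pair the samples. As a hint from the data, deviations correlated above 0.1 in 16 of 22 same-numbered pairs of wild type at 18 °C and 25 °C (median r = 0.184), against 3 of 22 differently numbered pairs (median r = -0.192). For Clk-Jrk and wild type it was 3 of 12 against 4 of 12. With the replicate block, 3 members were called for temperature, 3 for genotype and 2 for rhythm at 18 °C, where PGRP-SD joined (edgeR quasi-likelihood test, adjusted p = 0.0160). Of all genes 59.4%, 45.2% and 6.04% were called with the block, against 48.5%, 43.4% and 1.94% without it. Low counts kept PGRP-SC1a, PGRP-SC1b and PGRP-SB2 out of the tests.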
